A study of Mus musculus with 8 samples.

Results

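The 10 genes described here encode the enzymes, a helper protein and a receptor that make, sense or destroy prostaglandins and leukotrienes, namely Hpgd, Hpgds, Ptgs1, Ptgs2, Ptges3, Ptger4, Pla2g4a, Alox5, Alox5ap and Lta4h. They are 10 of 48500 genes in the deposited table, matched by symbol, and each symbol has 1 row. Hpgd was chosen for its very large fall from the WT to the Nynrin-KO libraries, so its difference between the groups is described without a test. The other 9 genes were taken for their place in the pathway, with earlier results of these data known.

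The cells were leukaemia stem cells from a mouse model in which HOXA9 and MEIS1 drive acute myeloid leukaemia. About 10000 bone marrow cells per library were sorted as GFP+ c-Kit+ Gr-1-, and RNA was sequenced after Smart-Seq V4 amplification. There were 4 libraries of the Nynrin+/+ genotype (WT1 to WT4) and 4 of the Nynrin-/- genotype (KO1 to KO4), and both groups carry the same leukaemia drivers. The labels state neither the age of the mice nor whether each library is a separate mouse, and a p-value here reflects only how the libraries vary.

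Prostaglandins and leukotrienes are short-lived lipid signals made from arachidonic acid, which a phospholipase cuts from membrane lipids. Cyclooxygenases turn the acid into the precursor of all prostaglandins, and a lipoxygenase with its membrane partner turns it into the precursor of all leukotrienes. Prostaglandin E2 acts on G protein-coupled receptors of blood stem cells and leukocytes and is inactivated inside cells by the dehydrogenase that Hpgd encodes, while leukotriene B4 attracts neutrophils.

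The libraries hold 1.96e+06 to 3.31e+07 reads in WT and 1.83e+06 to 2.87e+07 in Nynrin-KO, as recovered from the table. Nynrin, the targeted gene, was at 0.008 to 0.286 FPKM in WT and 0.0982 to 0.437 FPKM in Nynrin-KO (FPKM is fragments scaled to transcript length and library depth), so its level does not check the labels. Of the sorting and driver genes, Kit stood at 4.92 ± 1.61 (WT) and 3.73 ± 0.89 FPKM (Nynrin-KO; SD, n = 4 per group). Hoxa9 was at 1.06 ± 0.614 and 3.52 ± 2.02 FPKM, and Meis1 at 0.816 ± 0.109 and 3.69 ± 1.28 FPKM. The female-specific RNA Xist was at 15.2 to 26.5 FPKM in WT and 0.0175 to 12.7 FPKM in Nynrin-KO, and the Y-linked gene Ddx3y at 0 to 0.111 and 2.18 to 20.7 FPKM. KO1, with 12.7 FPKM of Xist and 2.18 of Ddx3y, held both, and the effects of sex and of genotype cannot be told apart in any comparison here. Gm10800, a gene model that splits the libraries, stood at 28612 to 142258 FPKM in 5 libraries, against 6076 (WT1), 3349 (KO2) and 3990 FPKM (KO4).

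The stretches of DNA before the starts of Hpgd, Ptgs1 and Alox5 are shown because these genes had the largest differences of the 10. Each is the 250 bases before the RefSeq start (GRCm38.p6, the assembly also called mm10), read 5′ to 3′ on the gene's own strand. They lie at chr8:56294302-56294551 (plus strand), chr2:36230176-36230425 (plus strand) and chr6:116461179-116461428 (minus strand). Capitals mark matches to 7 short motifs on either strand.
Hpgd: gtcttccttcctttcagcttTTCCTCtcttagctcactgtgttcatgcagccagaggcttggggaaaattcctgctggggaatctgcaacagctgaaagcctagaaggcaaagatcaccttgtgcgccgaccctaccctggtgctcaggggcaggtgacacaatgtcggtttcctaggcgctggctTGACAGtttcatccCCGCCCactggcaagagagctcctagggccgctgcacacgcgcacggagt
Ptgs1: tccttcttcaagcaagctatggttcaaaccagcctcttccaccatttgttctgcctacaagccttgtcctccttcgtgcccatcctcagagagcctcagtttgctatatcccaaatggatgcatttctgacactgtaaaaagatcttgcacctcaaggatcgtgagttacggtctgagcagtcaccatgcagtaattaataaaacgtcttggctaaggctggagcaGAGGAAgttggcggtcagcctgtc
Alox5: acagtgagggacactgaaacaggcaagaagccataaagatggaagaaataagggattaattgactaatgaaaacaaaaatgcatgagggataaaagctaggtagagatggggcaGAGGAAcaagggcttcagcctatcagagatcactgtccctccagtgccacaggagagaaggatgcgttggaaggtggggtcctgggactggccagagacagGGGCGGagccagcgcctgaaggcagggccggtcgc

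The motifs searched were GGGCGG (a GC box), GAGGAA (an ETS core as in PU.1 sites), TTGCNNAA (C/EBP), TGACAG (MEIS), CACGTG (an E-box), TGACGT (a CRE core) and, as the core that TBP binds, TATAAA. All 3 windows hold 1 GAGGAA match, which 23.3% of the 32851 promoter windows in the RefSeq table hold. In Ptgs1 it starts 24 bases before the gene's start, in Alox5 136 bases and in Hpgd 230 bases before it. The Hpgd window also holds GGGCGG, found in 32.7% of all windows, and TGACAG, found in 15.9%. The Alox5 window holds GGGCGG as well. No matches overlap within these windows, and a match is a run of letters and not a site shown to be bound. Of the 10 genes 9 were found in that table, with a pair of windows for Pla2g4a, and GAGGAA is in the window of 6 of them.

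Hpgd (ENSMUSG00000031613, mm10 chromosome 8, 56294585 to 56321043) encodes 15-hydroxyprostaglandin dehydrogenase, the first enzyme of prostaglandin breakdown. It stood at 1848, 1088, 854 and 1026 FPKM in WT1 to WT4, and at 18.1, 6.52, 7.81 and 29.9 FPKM in KO1 to KO4. Every WT library was thus far above every Nynrin-KO library, and the lowest WT value was 28.5 times the highest Nynrin-KO value. The means were 1204 ± 440.4 and 15.6 ± 10.9 FPKM (SD, n = 4 each), 77.2-fold apart.

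These values rest on many reads in every library except the shallow KO3. Hpgd took 102886, 12959, 2820 and 29769 reads in WT1 to WT4 and 289, 253, 24 and 1446 reads in KO1 to KO4. KO3, at 1.83e+06 reads in all, is the only library with fewer than 100 Hpgd reads, and its level of 7.81 FPKM is still above the 0.976 FPKM that 3 reads give there. Hpgd was therefore detected in all 4 Nynrin-KO libraries. By level it ranked between 34th and 76th of all genes in the WT libraries and between 1480th and 4943rd in the Nynrin-KO libraries.

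On the log2(FPKM + 1) scale the difference of Hpgd was -6.36 (Nynrin-KO minus WT), the largest negative difference of 12524 genes measured. As the gene was chosen for this value, it is a description. Leaving out any 1 library gave differences from -6.74 to -6.06, and the 5 libraries high in Gm10800 alone gave -6.25. With the mean level of mature neutrophil markers as a covariate it was -5.99.

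**Figure D1:**
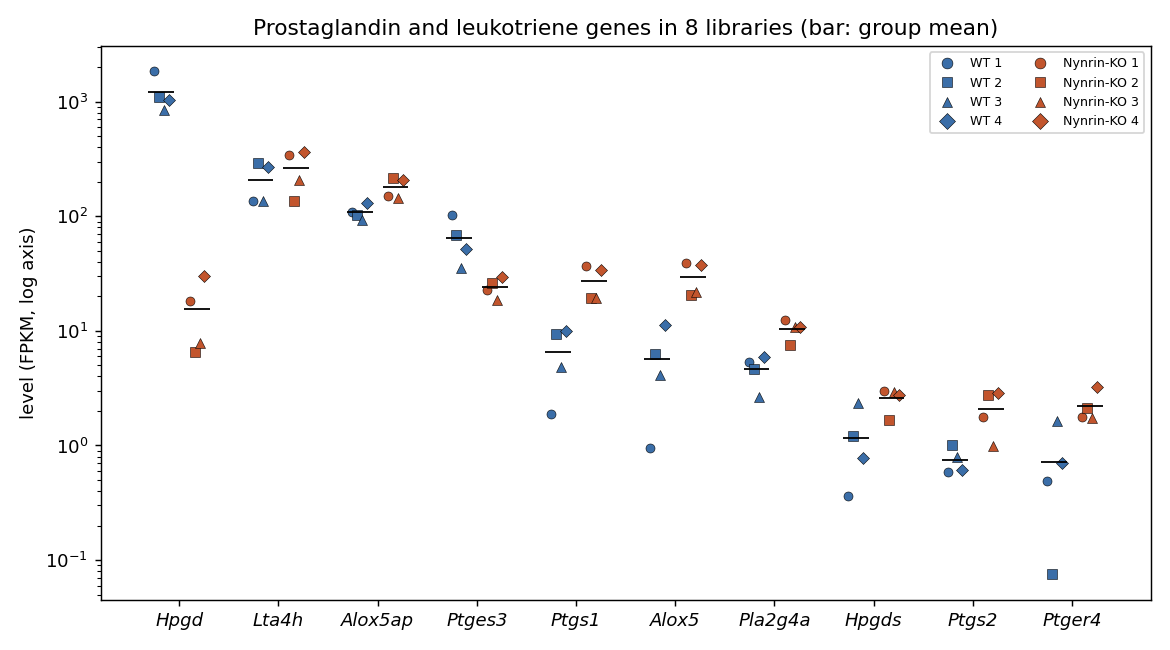
Level of the 10 genes in FPKM (log axis) in each of the 8 libraries, with WT in blue, Nynrin-KO in orange, a marker shape per replicate number and a bar at each group mean. Hpgd lies at 854 to 1848 FPKM in WT and at 6.52 to 29.9 FPKM in Nynrin-KO, while the WT and Nynrin-KO points of Lta4h, Hpgds and Ptgs2 overlap.

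The order of levels among the 10 genes, which FPKM allows because it is per length, differed between the groups. In WT, Hpgd led with 1204 FPKM and did not overlap the next gene, Lta4h (208 ± 83 FPKM), which in turn was above Alox5ap (109 ± 16.5). Alox5ap and Ptges3 (64.3 ± 28.3 FPKM) overlapped. Ptgs1, Alox5 and Pla2g4a followed at 6.50, 5.68 and 4.64 FPKM and each overlapped its neighbour, as did Hpgds, Ptgs2 and Ptger4 at 1.17, 0.753 and 0.723 FPKM.

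In Nynrin-KO, Lta4h (262 ± 109 FPKM) and Alox5ap (180 ± 37.4 FPKM) were highest and overlapped. Alox5, Ptgs1, Ptges3 and Hpgd came next at 29.6, 27.4, 24.3 and 15.6 FPKM, each overlapping its neighbour, and Pla2g4a at 10.4 FPKM overlapped Hpgd. Hpgd was 7.79 to 16.9 times the level of Alox5ap in the WT libraries and 0.0301 to 0.144 times in the Nynrin-KO libraries.

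Apart from Hpgd, 5 of the 9 genes rose in Nynrin-KO and 1 fell by limma with Benjamini-Hochberg adjustment over all genes at 0.05. Over all 12524 genes tested 27.9% changed, 14.0% rising and 13.8% falling. The groups of the same 6 genes did not overlap (5 higher and 1 lower in Nynrin-KO), which held for 31.7% of all genes tested, 16.7% higher and 15.0% lower. All 9 passed the filter on low values of 1 FPKM in 4 libraries, though Ptger4 and Ptgs2 were above 1 FPKM in only 1 WT library each. The median log2 change of the 9 was 0.79, against -0.03 over all genes tested. The genes that rose were Alox5, Ptgs1, Pla2g4a, Ptger4 and Alox5ap, and Ptges3 fell. Without WT1, WT2, KO1, KO2 or KO4 in turn only 3 genes rose, which were Alox5, Ptgs1 and Pla2g4a in each case, and within the 5 libraries high in Gm10800 1 rose, Alox5.

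Pla2g4a (ENSMUSG00000056220, chromosome 1, 149829618 to 149961290) encodes the cytosolic phospholipase A2 that releases arachidonic acid and so feeds every later step. Its levels were 5.36, 4.67, 2.66 and 5.90 FPKM in WT1 to WT4, and 12.6, 7.46, 10.8 and 10.9 FPKM in KO1 to KO4. The groups do not overlap, KO2 being the lowest of Nynrin-KO and WT3 the lowest of WT. It rose by 1.04 on the log2 scale (SE 0.24, adjusted p = 0.013), and it passed without each library in turn.

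Ptgs1 (ENSMUSG00000047250, chromosome 2, 36230426 to 36252272) encodes cyclooxygenase-1, the form most tissues make at rest. It stood at 1.89, 9.36, 4.8 and 9.96 FPKM in WT1 to WT4, and at 36.9, 19.4, 19.3 and 34.2 FPKM in KO1 to KO4. Every Nynrin-KO library was above every WT library, and WT1 was lowest. The gene rose by 2.05 on the log2 scale (SE 0.44, adjusted p = 0.00989), by 1.65 to 2.29 when 1 library was left out.

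Ptgs2 (ENSMUSG00000032487, chromosome 1, 150100031 to 150108227) encodes cyclooxygenase-2, the inducible form. It was low throughout, at 0.584, 1.02, 0.801 and 0.612 FPKM in WT1 to WT4 and 1.78, 2.74, 0.983 and 2.87 FPKM in KO1 to KO4. KO3 lay inside the WT range with only 8 reads, and the other Nynrin-KO libraries lay above it. Its log2 difference of 0.78 (95% interval 0.18 to 1.37) did not pass the threshold (adjusted p = 0.0545), and it passed without KO3 (difference 0.97, adjusted p = 0.012).

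Hpgds (ENSMUSG00000029919, chromosome 6, 65117293 to 65144908) encodes the haematopoietic synthase of prostaglandin D2, an enzyme known from mast cells and megakaryocytes, and shares little but its name with Hpgd. Its levels were 0.365, 1.2, 2.36 and 0.775 FPKM in WT1 to WT4 and 2.98, 1.68, 2.95 and 2.75 FPKM in KO1 to KO4. The groups overlap through WT3, which rests on 18 reads, and KO2. The log2 difference of 0.79 (95% interval 0.12 to 1.45) did not pass (adjusted p = 0.0764), and it passed without WT3 (1.02, adjusted p = 0.0186).

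Ptges3 (ENSMUSG00000071072, chromosome 10, 128058954 to 128077272) encodes p23, which acts mainly as a cochaperone of HSP90 and was also described as a cytosolic prostaglandin E synthase. It stood at 102, 68.7, 35.4 and 51.5 FPKM in WT1 to WT4 and at 22.7, 26.4, 18.6 and 29.6 FPKM in KO1 to KO4. No Nynrin-KO library reached the lowest WT library, WT3. The gene fell by 1.28 on the log2 scale (SE 0.31, adjusted p = 0.0165), and it passed without each library in turn but not within the 5 libraries high in Gm10800 (difference -1.25, adjusted p = 0.0618). A processed pseudogene, Ptges3-ps, is listed at 9.55 to 37.6 FPKM in WT and 2.86 to 11.4 FPKM in Nynrin-KO, and how reads were divided between these copies is not given, so the level of Ptges3 is uncertain.

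HSP90 and its cochaperones were set beside Ptges3 because p23 binds HSP90. Of the 11 other genes of this list 5 fell and 1 rose, while 13.8% of all genes tested fell and 14.0% rose. Hsp90ab1, the constitutive form of HSP90, went from 1204 ± 395 to 357 ± 146 FPKM (log2 difference -1.80, SD, n = 4 each, adjusted p = 0.00618), and the inducible form Hsp90aa1 from 758 ± 162 to 299 ± 64.5 FPKM. The cyclophilin gene Ppid, the adaptor gene Stip1 and the immunophilin gene Fkbp4 fell by 1.07, 0.99 and 1.39. Fkbp5, an immunophilin known as a target of glucocorticoids, went from 3.84 ± 0.496 to 8.76 ± 1.13 FPKM. Stip1 did not pass without WT1, WT2, WT4, KO1, KO2 or KO3 (adjusted p from 0.0627 to 0.0981), nor Fkbp4 without WT1, WT3 or KO1 (0.0656 to 0.082).

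Ptger4 (ENSMUSG00000039942, chromosome 15, 5206661 to 5244187) encodes EP4, a receptor of prostaglandin E2 that raises cyclic AMP. Its levels were 0.489, 0.0749, 1.62 and 0.708 FPKM in WT1 to WT4 and 1.79, 2.1, 1.74 and 3.22 FPKM in KO1 to KO4. WT2 held 2 reads, below the 0.112 FPKM that 3 reads give there, and WT3 and KO3 held 12 reads each at levels close to one another. The groups do not overlap, by a narrow margin, and the gene rose by 0.95 on the log2 scale (SE 0.30, adjusted p = 0.0442). It did not pass without WT1, WT2, WT4, KO1, KO2 or KO4 (adjusted p from 0.0673 to 0.118).

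Of the 8 other prostanoid receptor genes 2 could be tested, Ptger2 and Ptgir, and both rose at low levels. Ptger2, which encodes the other receptor of prostaglandin E2 that raises cyclic AMP, was at 0.722, 1.15, 0.830 and 1.13 FPKM in WT1 to WT4 and 2.69, 2.80, 1.63 and 2.74 FPKM in KO1 to KO4. It rose by 0.81 (SE 0.20, adjusted p = 0.0182), but not past the threshold without WT1, KO2 or KO4 (adjusted p = 0.0504, 0.0567 and 0.0554). Ptgir, the receptor gene of prostacyclin, went from 0.988 ± 0.101 to 2.93 ± 0.442 FPKM and rose by 0.98 (SE 0.17, adjusted p = 0.00472), also without each library in turn. The remaining 6, among them the thromboxane receptor gene Tbxa2r at 0.172 and 0.0611 FPKM, were too low to be tested.

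Alox5 (ENSMUSG00000025701, chromosome 6, 116410077 to 116461178) encodes 5-lipoxygenase, which starts leukotriene synthesis in myeloid cells. It stood at 0.955, 6.32, 4.13 and 11.3 FPKM in WT1 to WT4 and at 38.8, 20.5, 22.0 and 37.2 FPKM in KO1 to KO4. The groups do not overlap, WT4 being the highest of WT and still below KO2. The gene rose by 2.43 on the log2 scale (SE 0.51, adjusted p = 0.00947), by 1.93 to 2.81 when 1 library was left out, and by 1.97 within the 5 libraries high in Gm10800 (adjusted p = 0.0445). KO1 and KO4 were the highest libraries for Alox5 and for Ptgs1, and WT1 the lowest for both.

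Alox5ap (ENSMUSG00000060063, chromosome 5, 149264767 to 149288153) encodes FLAP, the membrane protein that hands arachidonic acid to 5-lipoxygenase. Its levels were high in all libraries, at 109, 103, 92.5 and 132 FPKM in WT1 to WT4 and 152, 216, 144 and 208 FPKM in KO1 to KO4. The groups lie close but do not overlap. It rose by 0.70 (SE 0.21, adjusted p = 0.0366), and did not pass without WT1, WT2, WT3, KO1, KO2 or KO4 (adjusted p from 0.0515 to 0.101). Alox5ap stood 3.91 to 114-fold above Alox5 across the libraries, and the ratio was lowest in KO1 and highest in WT1.

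Lta4h (ENSMUSG00000015889, chromosome 10, 93453411 to 93484875) encodes the hydrolase that makes leukotriene B4. It stood at 136, 289, 136 and 270 FPKM in WT1 to WT4 and at 345, 135, 208 and 360 FPKM in KO1 to KO4. The groups overlap over most of their range, and the lowest library of all was KO2. The log2 difference of 0.31 (95% interval -0.57 to 1.2) did not pass (adjusted p = 0.587), and without WT1 and KO1 it was -0.024.

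**Figure D2:**
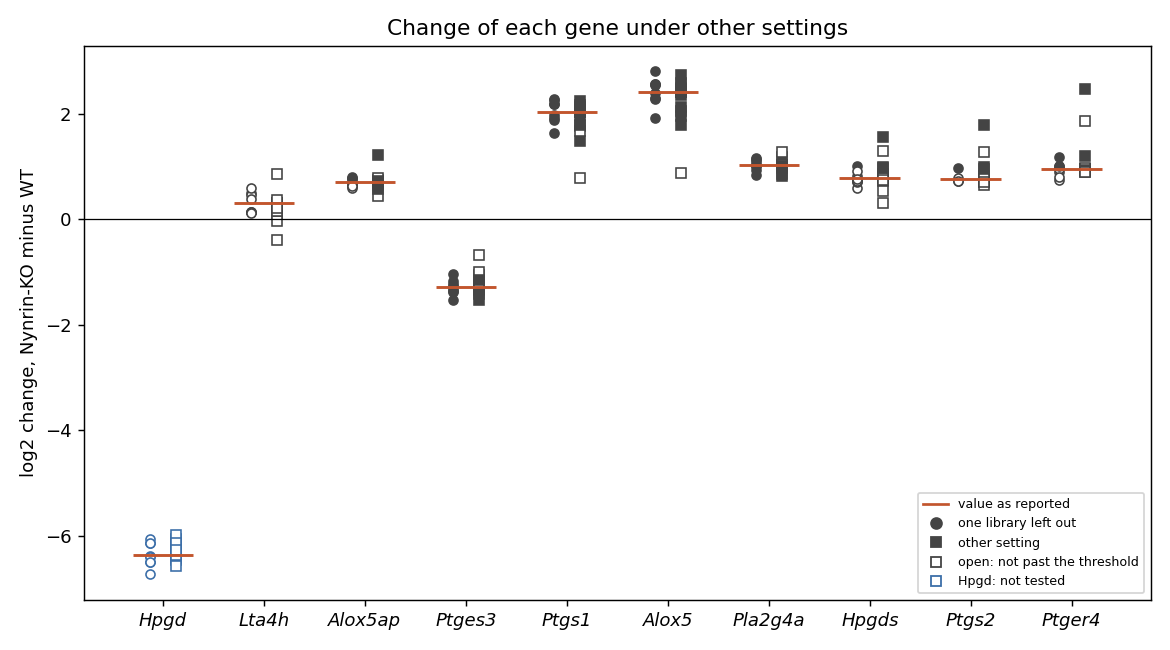
Log2 change of each of the 10 genes (Nynrin-KO minus WT) as reported (orange line), with 1 library left out (circles) and under the other settings (squares), filled where past the threshold and blue for Hpgd, which was not tested. Hpgd stays between -6.74 and -5.99, and Lta4h crosses 0.

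Further genes of the pathway come from 6 lists of its roles. Of 72 such genes measured, 30 passed the filter on low values, and of these 9 rose, 2 fell and 19 did not pass the threshold. The shares over all genes tested were 14.0% rising and 13.8% falling. Of these 30 genes, 2 passed the filter through the Nynrin-KO libraries alone, Plaat3 and Slco3a1, so their counts are favoured by the filter. With WT1, KO2 or KO4 left out, 5, 4 and 3 of them rose, and none passed within the 5 libraries high in Gm10800 by limma (3 had an unadjusted p under 0.05). The median log2 change of the 30 was 0.46.

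Among receptors for leukotrienes and lipoxins, Ltb4r1 and Fpr2 rose and Cysltr1 did not pass. Ltb4r1, the high-affinity receptor gene of leukotriene B4, was at 18.9, 42.4, 54.8 and 73.5 FPKM in WT1 to WT4 and 186, 134, 82.5 and 173 FPKM in KO1 to KO4. WT1 was lowest and the groups do not overlap. It rose by 1.67 (SE 0.42, adjusted p = 0.0187), and did not pass without KO1 or KO4 (0.0505 and 0.0524). Fpr2, a receptor gene for formyl peptides and lipoxin A4, went from 4.15 ± 3.43 to 36.3 ± 11.1 FPKM (SD, n = 4 each) and rose by 3.09 (SE 0.49, adjusted p = 0.00325), also without each library in turn.

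Of the other leukotriene enzyme genes 3 of 7 tested rose. Mgst2, a microsomal enzyme that can make leukotriene C4, went from 4.27 ± 2.27 to 13.1 ± 4.12 FPKM and rose by 1.49 (adjusted p = 0.0148). Cyp4f18, a cytochrome that inactivates leukotriene B4 in mouse neutrophils, went from 56.5 ± 18.6 to 117 ± 40.5 FPKM with overlapping groups (adjusted p = 0.048), and its relative Cyp4f13 rose by 0.77 (adjusted p = 0.0226). Cyp4f18 did not pass without WT1, WT2, WT3, KO1, KO2 or KO4 (0.0691 to 0.123), nor Cyp4f13 without WT1, WT2, KO2 or KO4 (0.056 to 0.0605). Ltc4s, the main leukotriene C4 synthase gene, was below the filter at 0.103 and 0.282 FPKM.

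Of the other prostanoid synthesis genes 1 of 4 tested fell and none rose by limma (1 had an unadjusted p under 0.05 in that direction). Akr1b3, an aldo-keto reductase with prostaglandin F synthase activity, went from 23.4 ± 8.33 to 9.47 ± 1.88 FPKM and fell by 1.17 (SE 0.27, adjusted p = 0.0124). Ptges, the inducible synthase gene of prostaglandin E2, went from 0.936 ± 0.313 to 2.18 ± 0.749 FPKM without overlap but did not pass (log2 difference 0.70, 95% interval 0.18 to 1.22, adjusted p = 0.051). The thromboxane synthase gene Tbxas1 did not pass either (0.50, 95% interval -0.06 to 1.07, adjusted p = 0.165).

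The other genes of prostanoid breakdown and transport follow here. Hpgd was chosen for its large fall, so no comparison of their differences with that of Hpgd is drawn. Ptgr1, a reductase gene that acts after Hpgd, was at 15.4 ± 4.61 and 23.6 ± 8.63 FPKM (log2 difference 0.58, adjusted p = 0.161), and Ptgr2, another such reductase gene, at 3.99 ± 0.131 and 4.39 ± 0.557 FPKM (0.10, 95% interval -0.22 to 0.43, adjusted p = 0.617). Of the 5 genes of this list tested apart from Hpgd, which include Ptgr1 and Ptgr2, only Slco3a1, a transporter gene, rose. It went from at most 0.246 FPKM in WT to 1.25 to 2.67 FPKM in Nynrin-KO (adjusted p = 0.00464). Slco3a1 reached 1 FPKM in no WT library, so the filter favoured this call. It could not be tested with any 1 Nynrin-KO library left out, as it was then below the filter. Slco2a1, the prostaglandin uptake transporter gene, was below the filter in both groups with 0.402 and 0.342 FPKM.

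Of 9 other genes tested for release and reacylation of arachidonic acid 1 rose and 1 fell. Plaat3, a phospholipase gene, went from 0.3 ± 0.204 to 1.39 ± 0.287 FPKM (adjusted p = 0.0245), and Acsl3, an acyl-CoA synthetase gene, from 2.33 ± 0.622 to 0.893 ± 0.211 FPKM (adjusted p = 0.0218). Plaat3 reached 1 FPKM in no WT library, so the filter favoured its call. It did not pass without WT1 (0.0534) and, with any 1 Nynrin-KO library left out, was below the filter and was not tested. Neither did Acsl3 pass without WT1 or KO2 (0.0654 and 0.0572). Acsl4, which prefers arachidonic acid, was at 3.10 ± 0.685 and 4.15 ± 0.564 FPKM and did not pass (adjusted p = 0.187).

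**Figure D3:**
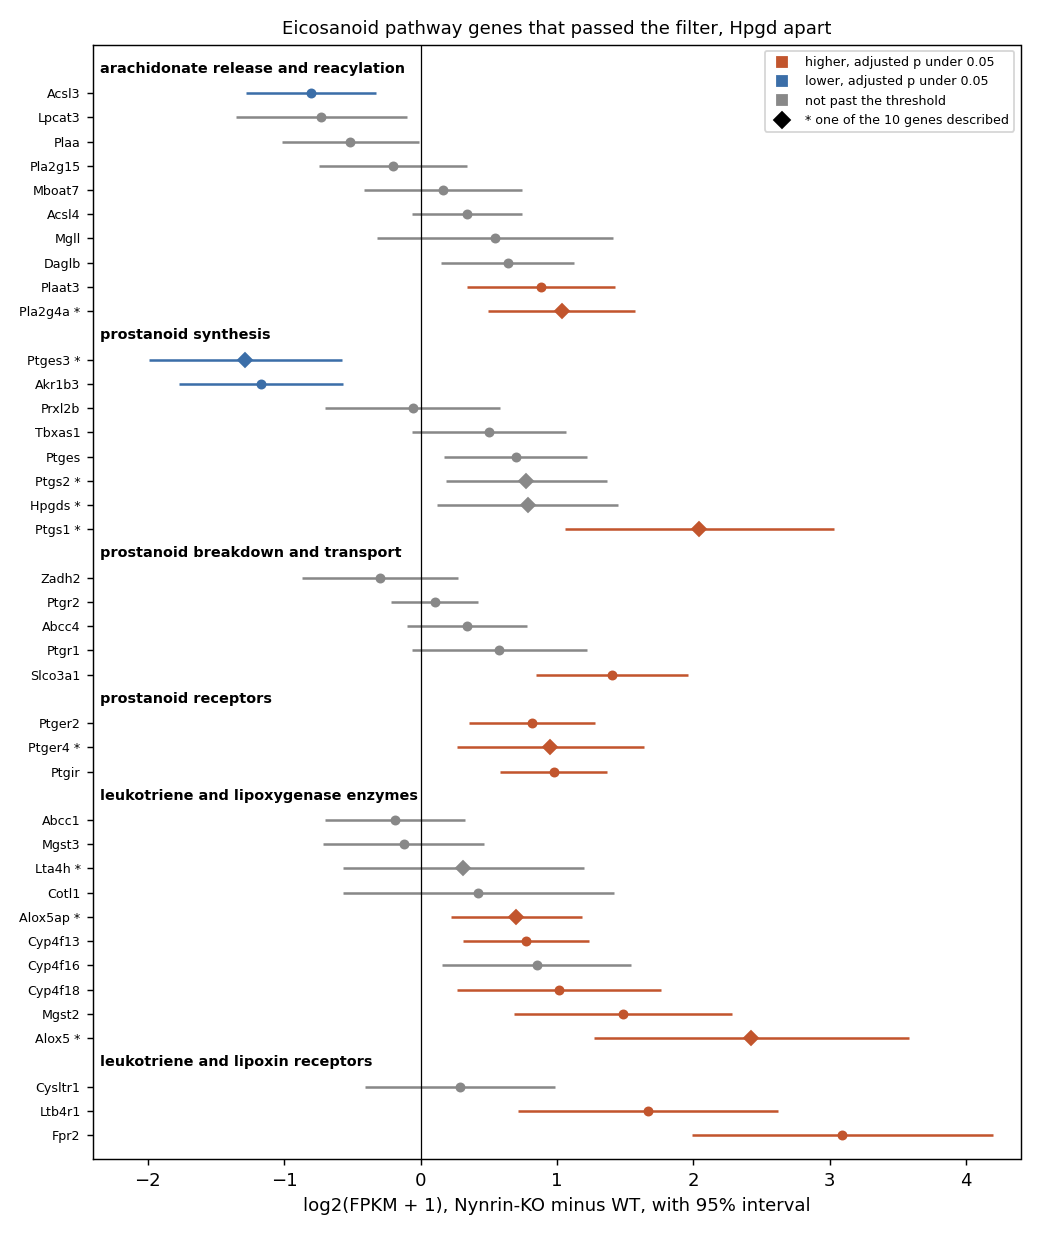
Difference in log2(FPKM + 1) between Nynrin-KO and WT with its 95% interval for the pathway genes that passed the filter on low values, Hpgd apart, grouped by role, with diamonds for the 9 genes described in detail. Fpr2 (3.09) and Alox5 (2.43) lie farthest to the right and Ptges3 (-1.28) farthest to the left.

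Markers of other blood cells also differed between the groups, and in bulk RNA fewer cells of a type and less RNA per cell cannot be told apart. Beside the counts for each marker list stand 14.0% of all genes tested that rose and 13.8% that fell. Of 15 mature neutrophil markers, a cell type known for Alox5, Alox5ap, Ltb4r1 and Fpr2, 9 rose, none fell and none was at 0 in any library. Without WT2, KO1, KO2 or KO4 in turn 5 rose, without KO3 6, and without WT1 12. Their summed level was 3016 to 105420 FPKM in WT, with WT1 lowest, and 125626 to 285407 FPKM in Nynrin-KO, with KO1 highest. Its main part came from S100a8, S100a9 and Ngp, none of which passed the threshold (adjusted p = 0.0975, 0.0943 and 0.0958). Cells with Gr-1 on their surface were sorted out, yet Ly6g, a Gr-1 antigen gene that this list shares with the next one, went from 30.4 ± 20.9 to 183 ± 69.98 FPKM (SD, n = 4 each). Of the 9 other genes listed for the sort and the leukaemia 2 rose, Hoxa9 and Meis1, and 5 fell, among them Cd34, which went from 86.4 to 6.26 FPKM. With Ly6g counted, 3 genes of this list rose, against 0 by limma without KO1, KO2 or KO4 (Meis1, at 1 FPKM in no WT library, was then not tested) and 1 without WT2 or KO3, and those that fell numbered 3 without KO1 or KO2.

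With the mean level of these neutrophil markers as a covariate, which separates the groups, none of the 9 genes rose by limma (2 had an unadjusted p under 0.05) and the number of genes changed over the whole table was 8. The log2 difference of Alox5 was then 0.87 (adjusted p = 0.211) and that of Ptgs1 0.79 (adjusted p = 0.26), each smaller than without the covariate. That of Pla2g4a was 1.04 and that of Alox5ap 0.71, neither past the threshold, and that of Hpgd, which was not tested, -5.99. As the covariate separates the groups, this fit cannot divide a difference between marker level and group. No contrast between these genes is read from it.

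Markers of further cell types were measured at lower levels. Of 13 macrophage markers tested 10 rose, with a summed level of 51.6 to 78.6 FPKM in WT and 276 to 735 FPKM in Nynrin-KO, and Apoe was the highest in Nynrin-KO (6.48 and 235 FPKM). Of these 10, 4 (Mrc1, Cd5l, Mertk and Axl) reached 1 FPKM in no WT library and so passed the filter through the Nynrin-KO libraries alone, and without any 1 Nynrin-KO library 6 rose. The 3 macrophage markers that did not pass were Adgre1, the highest in WT (38.8 and 41.6 FPKM), Cd163 (1.51 and 1.24) and Siglec1 (0.483 and 3.19). Of 12 mast cell and basophil markers 6 were tested, 3 rose and 1 fell, and 8 were at 0 in at least 1 library. The gene that fell was Gata2, from 3.28 to 1.07 FPKM (adjusted p = 0.00654 by limma). Without any 1 Nynrin-KO library 2 rose, since Ms4a2 reached 1 FPKM in no WT library. Their summed level was 11.8 to 15.1 FPKM in WT and 48.5 to 119 FPKM in Nynrin-KO, with Hdc and Cpa3 leading at 28.3 and 27.6 FPKM in Nynrin-KO.

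Of 13 T, NK and B cell markers 5 were tested and 3 rose. Their summed level was 26.1 to 32.3 FPKM in WT and 145 to 260 FPKM in Nynrin-KO. Cd79b led in WT (20.96 FPKM, against 17.9 in Nynrin-KO) and Nkg7 in Nynrin-KO (143 FPKM, against 4.45 in WT), while Trac was at 0.192 and 0.231 FPKM. Of the 3 that rose, Cd79a reached 1 FPKM in no WT library. Megakaryocyte and platelet markers, a cell type known for Ptgs1 and Hpgds, summed to 1.13 to 6.28 FPKM in WT and 5.45 to 12.6 FPKM in Nynrin-KO, and of 11 such genes 2 were tested and 1 rose, against 0 by limma without WT1 or any 1 Nynrin-KO library and 2 without WT2. Eosinophil markers summed to 9.61 to 362 and 36.1 to 202 FPKM with overlap, and Prg2 and Siglecf gave the largest parts. Of 3 eosinophil markers tested 2 rose, Siglecf (9.43 and 30.2 FPKM) and Ccr3 (0.0796 and 1.53 FPKM). Without any 1 Nynrin-KO library 1 rose, as Ccr3 reached 1 FPKM in no WT library. The other marker tested, Prg2, the highest of the list by mean level, went from 174 ± 144 to 52.6 ± 73.3 FPKM. Its log2 difference of -1.54 did not pass by limma (adjusted p = 0.421). Prg2 was at 4.18 FPKM in WT1, against 128 to 347 FPKM in WT2 to WT4. In KO1 it was at 162 FPKM, against 12.4 to 23.1 FPKM in KO2 to KO4. The eosinophil markers that fell numbered 1 without WT1, and 1 without WT1 and KO1. The part of these 6 cell types in the differences of the 10 genes was not tested.

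**Figure D4:**
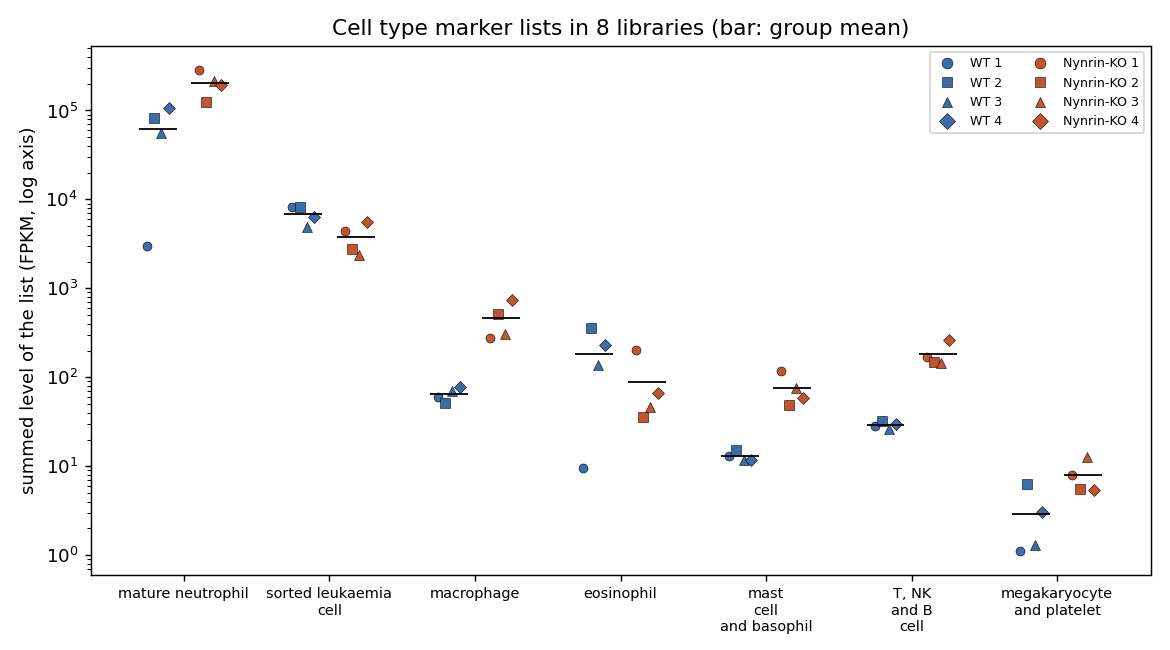
Summed FPKM (log axis) of each cell type marker list in the 8 libraries, with WT in blue, Nynrin-KO in orange and a bar at each group mean. The Nynrin-KO points lie above all WT points for mature neutrophil, macrophage, mast cell and basophil, and T, NK and B cell markers, while eosinophil and megakaryocyte points overlap.

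The genes whose level followed Hpgd most closely over the 8 libraries were Got1, Ipo11, Pgam1, Tuba1c and Tuba1b, with Pearson r of 0.997, 0.991, 0.989, 0.989 and 0.989 on the log2(FPKM + 1) scale among 9326 named genes. The 8 points form 2 groups, so much of each r is the difference between them. After the group means were taken out r was 0.975 for Got1, 0.919 for Ipo11, 0.860 for Pgam1, 0.738 for Tuba1c and 0.741 for Tuba1b. Got1, a transaminase of aspartate, went from 7.85 ± 0.972 to 3.02 ± 0.537 FPKM, and the glycolysis gene Pgam1 from 868 ± 261 to 138 ± 42.8 FPKM (SD, n = 4 each). These folds are far smaller than that of Hpgd, which was chosen for its large fall.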

How the data were processed

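RNA-seq of 8 libraries was analysed, 4 WT and 4 Nynrin-KO, grouped and numbered by the sample titles. Per the submitters' processing notes the build was mm10, and Bowtie (0.12.9), Cufflinks (2.1.1) and HTSeq are named without their roles. The header names no unit. The deposited table was taken to hold FPKM, since values times the longest GENCODE M21 transcript length add up to the same total in every library. Dividing by the step of 1 read gave whole reads for 99.4% to 99.5% of low values in every library (tolerance 0.1 read), and a level of 3 reads is given as the floor, for counting error only. How reads were counted, and on which strand, the labels do not say.

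The test was limma (3.58.1, under R 4.3.3) on log2(FPKM + 1) for genes reaching 1 FPKM in 4 or more libraries, with group as the only term, trend and robust moderation, two-sided, Benjamini-Hochberg at 0.05 over 12524 genes. Fold changes on this scale understate low genes. All 9 members other than Hpgd passed the filter, so the permutation test planned for members below it was not needed. Members and gene lists were chosen with earlier results of these data known. The text names every member, each pathway and HSP90 gene past the threshold, at most 3 genes per marker list by mean level, and the 5 genes most like Hpgd. Further pathway and marker genes (Ptges, Tbxas1, Ptgr1, Ptgr2, Acsl4, Ltc4s, Slco2a1, Cbr1, Ptgdr, Cysltr1, Trac, Cd79a, Tbxa2r, Ccr3, Ms4a2, Gata2, Mrc1, Cd5l, Mertk, Axl, Cd163, Siglec1, Ly6g, Cd34, Kit, Hoxa9, Meis1) and Ptges3-ps were picked with their values in view. A simulation with known changes served to test the fit. Alternatives covered the pseudocount, filter, scaling, estimation, threshold, replicate block, covariates, voom and left-out libraries. Motifs and plots used Python 3.11.15, pandas 2.3.3 and matplotlib 3.10.9.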

Additional observations from a re-analysis of the deposited data

Results flagged for a closer look

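Ptger2 in KO3 was far from the other Nynrin-KO libraries, at 1.63 FPKM against 2.69 to 2.80 FPKM, by Dixon's ratio within a group of 4. It was the only such value among 42 groups of 4 checked over 21 genes, where chance flags about 1 in 20 groups. KO3 has the fewest reads of the 8 libraries, 1.83e+06.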

How the results depend on the processing

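Hpgd, chosen for its difference, is left aside here. The log2 differences of the other 9 genes, Lta4h apart, kept their sign under every alternative that could be fitted. That of Lta4h reversed without WT1 and KO1 (-0.024) and with mature neutrophil markers as a covariate (-0.40), and that of Tbxas1 with the covariate (-0.011). Members that rose (5 as reported) numbered 2 with no filter, 3 with median scaling, 3 with the replicate block, 2 at adjusted p under 0.01, 2 without WT1 and KO1, 1 in the libraries high in Gm10800, 0 with the covariate, and 3 to 6 with 1 library left out. Members that fell (1) numbered 0 with no filter, at 0.01, without WT1 and KO1, in the libraries high in Gm10800 (by limma, 1 at an unadjusted p under 0.05 in each) and with the covariate (0 unadjusted), and 1 with any 1 library left out. Other pathway genes that rose (9) numbered 4 with no filter, 14 with array weights, 3 at 0.01, 3 without WT1 and KO1, 0 in the libraries high in Gm10800 (3 unadjusted), 0 with the covariate (4 unadjusted) and 3 to 10 with 1 library left out. Those that fell (2) numbered 1 with no filter, 1 at 5 FPKM, 1 with the replicate block, 4 with Gm10800 as a covariate, 0 at 0.01 (4 unadjusted), 0 without WT1 and KO1 (3 unadjusted), 0 in the libraries high in Gm10800 (4 unadjusted), 0 with the neutrophil covariate (0 unadjusted) and 1 to 2 with 1 library left out. Genes changed over the whole table (3488) numbered 1698 with no filter, 1454 at 0.01, 1579 without WT1 and KO1, 925 in the libraries high in Gm10800, 8 with the covariate and 2358 to 3606 with 1 library left out. Fits with libraries left out have less power, and the libraries high in Gm10800 were only WT2 to WT4 against KO1 and KO3. A stricter threshold lowers these counts by construction, and otherwise the cause was not tested.

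Voom on recovered reads gave 7 members that rose and 1 that fell, Ptgs2 (adjusted p = 0.00103) and Hpgds (0.00536) among the former. Leaving out WT3 and KO3, the shallowest libraries, was chosen after seeing the data and gave 6 and 1. The labels do not say whether the replicate numbers pair the libraries. Same-numbered libraries correlated at -0.21, -0.39, 0.33 and 0.01 in their deviations from the group means, and only WT3 was closest to its own number. With 4 libraries per group these values cannot exclude a pairing. With the replicate block Ptger4 (adjusted p = 0.0739), Alox5ap (0.0581), Plaat3 (0.066), Acsl3 (0.0538), Stip1 (0.0675) and Fkbp4 (0.0755) did not pass. Depth limits Ptgs2, Ptger4 and Hpgds, which rest on 7 to 21 reads in WT3 and KO3. In WT3 it also limits Pla2g4a (18 reads), Ptgs1 (27 reads) and Alox5 (29 reads).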

Other observations

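Of the 42 other pathway genes below the filter on low values, 2 had groups that did not overlap, both higher in Nynrin-KO, and none was lower. The share of such genes among all genes below the filter was not measured, so no direction is read from these counts. Ptgdr, a receptor gene of prostaglandin D2, was at 0, 0.0887, 0 and 0.0728 FPKM in WT1 to WT4 and 0.96, 0.313, 1.03 and 0.579 FPKM in KO1 to KO4. Cbr1, a carbonyl reductase gene that can act on prostaglandin E2, averaged 0.445 ± 0.043 (WT) and 1.0 ± 0.597 FPKM (Nynrin-KO; SD, n = 4 per group). Both were chosen after their values were seen and were not tested.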
